A study of Drosophila melanogaster with 16 samples.

Results

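The sodium pump and voltage-gated channel genes described here are 10 of the 16364 genes counted in the series. They were chosen by name: the sodium pump's main catalytic subunit Atpalpha, its beta subunits nrv1, nrv2 and nrv3, the sodium channel para, the potassium channels Sh, Shab, Shal and Shaw, and the calcium channel cac. No measured value entered the choice by name, although earlier results of these data were known when the genes were picked. All 10 passed the filter on low counts, which kept 10913 genes for testing.

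The cells were ganglion mother cells (GMCs) and type I neuroblasts (NBs) of the Drosophila larval brain. A type I NB is a neural stem cell that divides asymmetrically into another NB and a GMC, and the GMC divides once more to give neurons or glia. All cells, GMCs and NBs alike, came from wandering larvae of the last instar that were labelled wild type, were raised at 25 °C and carried UAS-dcr2, ase-GAL4 and UAS-stinger::GFP, so a Dicer-2 transgene was expressed in every group. Both cell types carried the nuclear GFP that ase-GAL4 drives. NBs were sorted, kept in culture for 1.5, 3 or 5 h, and sorted again to part the NBs from the GMCs born in the dish. There were 3 GMC and 3 NB libraries at 1.5 h, 2 GMC and 3 NB libraries at 3 h, and 2 GMC and 3 NB libraries at 5 h.

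The sodium pump moves sodium out of and potassium into the cell at the cost of ATP, and so keeps up the gradients that channels draw on. Its alpha subunit does the transport, and a beta subunit is needed for folding and for delivery to the membrane. In Drosophila nrv2 is widely used as a glial beta subunit gene and nrv3 is known from neurons, and Atpalpha and nrv2 also take part in septate junctions, the seal between epithelial or glial cells. Voltage-gated channels open when the membrane depolarises: para carries the sodium current of the action potential, Sh and Shal give fast inactivating potassium currents, Shab and Shaw give delayed or sustained ones, and cac is the main calcium channel of presynaptic release.

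Total counts in genes ran from 6899670 to 21207182 per library. The non-coding gene CR43283 alone took 0.52% to 27.48% of them, more in the GMC than in the NB libraries of each age, and scaling without it is among the alternatives tried. The labels' cell types were checked by marker genes: all 4 GMC markers rose in GMCs at 1.5 h and at 3 h and 3 of them at 5 h. Of all genes tested, 8.59%, 10.2% and 14.8% were called higher in GMCs at these ages (adjusted p under 0.05, edgeR). Called lower were 8.97%, 10.5% and 14.0%. Of 8 neuroblast markers, 6 were lower in GMCs at 1.5 h and none higher. At 3 h 5 were lower and 2 higher, and at 5 h 4 were lower and 2 higher. Among them stg, a mitotic phosphatase gene of dividing NBs, fell at each age, while wor and ase rose at 3 and 5 h. The summed level of the GMC markers was 3591 to 8891 CPM in the GMC libraries and 543 to 1277 CPM in the NB libraries. File names hold 1 code for each age, read here as a flow cell, though no label says what it marks. Age cannot be told apart from what the codes mark, such as a sequencing run. No label says that replicates came from separate cultures, so p-values measure the spread between these libraries.

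Members differed widely in abundance. Levels of different genes were compared as CPM (read counts scaled to a common library size, per megaread) per kilobase of exon. Exon length joined all annotated transcripts of a gene, 22.8 kb from 17 for Sh and 4.61 kb from 3 for Shal. A single transcript can be shorter, so the order of genes depends on that choice. By the median of the 16 libraries, Atpalpha at 103 CPM per kb and nrv2 at 96.0 CPM per kb led, with ranges of 69.8 to 180 for Atpalpha and 79.0 to 118 for nrv2 that overlapped. The calcium channel gene cac followed at 16.2 CPM per kb (range 3.7 to 96.9). The other 7 lay far below, at medians of 1.51 for nrv1, 1.18 for nrv3, 1.18 for Shal, 0.993 for Shaw, 0.637 for para, 0.263 for Sh and 0.262 for Shab, with ranges that overlapped from each gene to the next. The low genes rested on few reads: nrv3 had 4 to 9 counts per library in NBs at 1.5 h, Shab 4 counts in 1 GMC library at 3 h, and nrv1 6 to 8 counts in GMCs at 5 h.

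**Figure D1:**
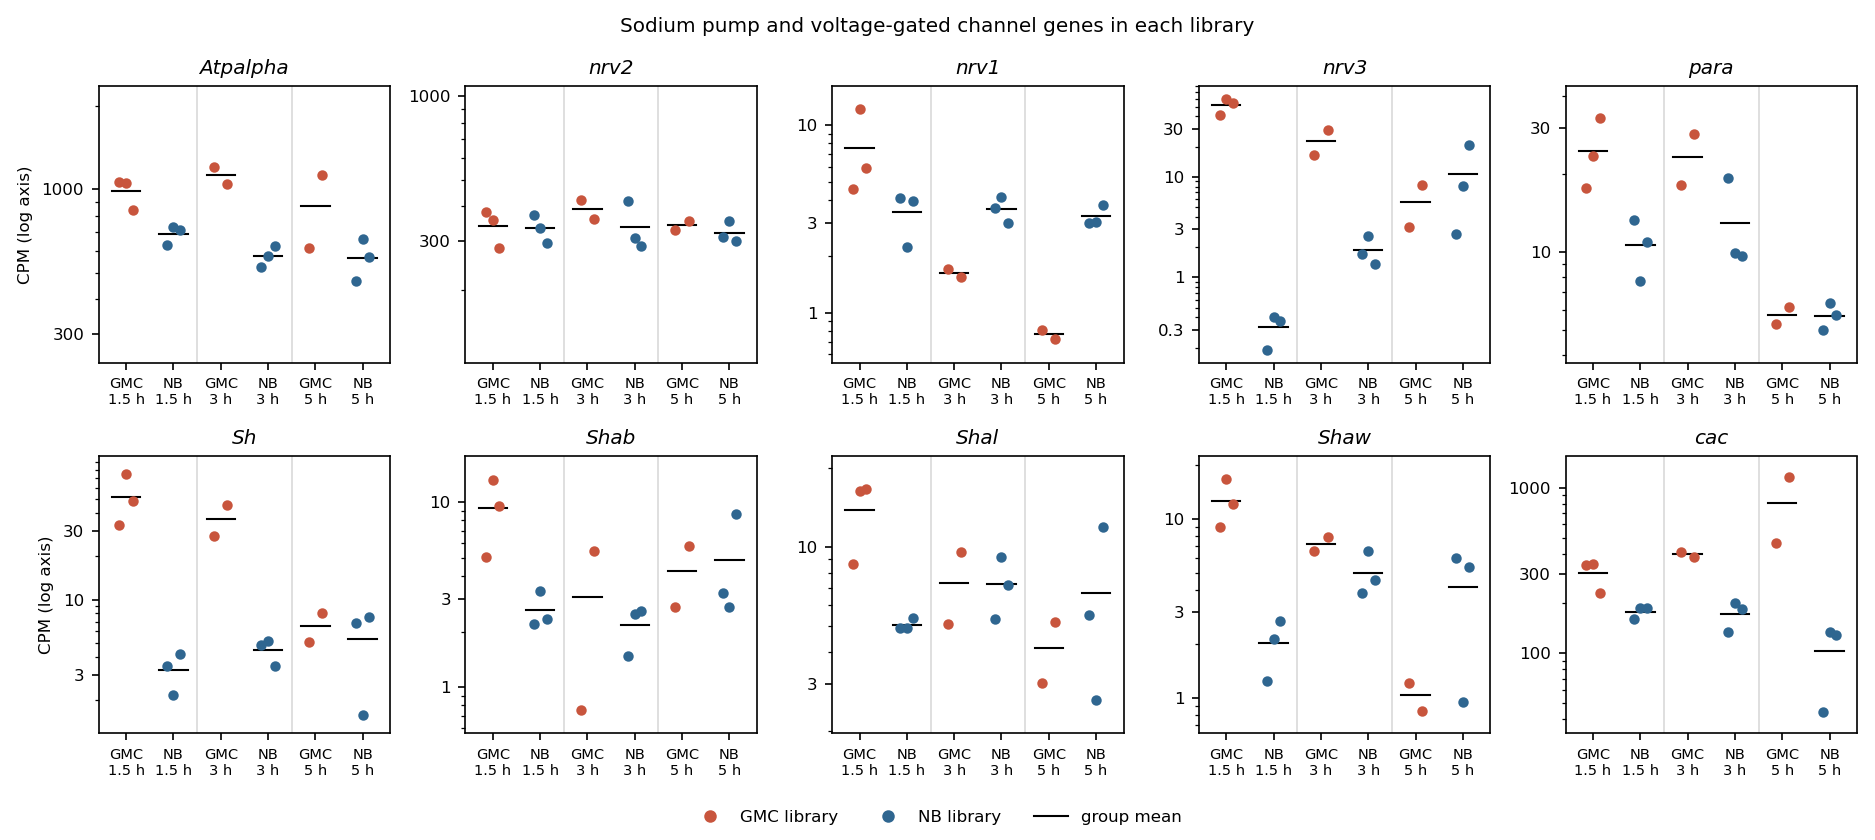
CPM of each gene in each library on log axes, with 1 panel and 1 scale per gene; points are libraries, GMC in red and NB in blue, and lines are group means. nrv3, Sh and Shaw stand higher in every GMC library than in every NB library at 1.5 h, cac does so at each age, and nrv2 overlaps throughout.

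The question set by the design is how GMCs differ from their sister NBs as they age. At 1.5 h 6 of the 10 genes were called higher in GMCs at a Benjamini-Hochberg adjusted p under 0.05 (edgeR's quasi-likelihood test over all genes) and none was called lower. Of all genes tested, 17.6% were called in that comparison, 8.59% as higher and 8.97% as lower. At 3 h 4 of the 10 were called higher and none lower, where 20.7% of all genes were called and 10.2% as higher. At 5 h 2 were called higher and 2 lower, where 28.8% of all genes were called, 14.8% as higher and 14.0% as lower. The median log2 fold change of the 10 genes was 1.33 at 1.5 h, 0.72 at 3 h and -0.10 at 5 h, beside 0.04, 0.07 and -0.12 over all genes tested. At 1.5 h the GMC libraries all lay above the NB libraries for 9 of the 10 genes, the exception being nrv2, where 42.6% of all genes had no overlap in either direction. At 3 h 5 of the 10 had no overlap, Atpalpha, nrv3, Sh and cac above and nrv1 below, beside 50.1% of all genes, and at 5 h 2, cac above and nrv1 below, beside 47.9%.

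**Figure D2:**
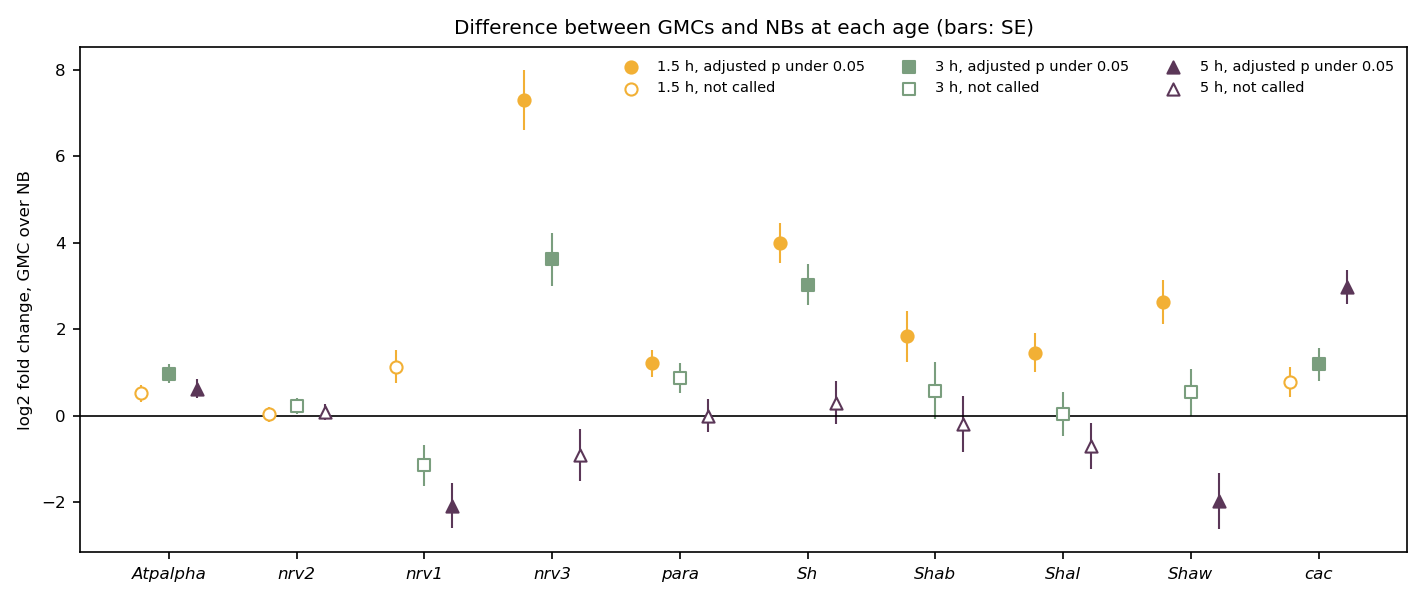
Log2 fold change of GMCs over NBs for each gene at 1.5, 3 and 5 h, with bars of 1 SE; filled symbols passed an adjusted p of 0.05 and open symbols did not. nrv3 stands at 7.30, 3.61 and -0.91 at the 3 ages and Sh at 3.99, 3.03 and 0.30, whereas cac stands at 0.77, 1.19 and 2.98.

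The pump's alpha subunit gene Atpalpha (FBgn0002921, chromosome 3R, positions 20948714 to 20976239, plus strand) had 1064, 1058 and 844 CPM in GMCs at 1.5 h, against 627, 728 and 710 CPM in NBs. Its levels at 3 h were 1200 and 1046 CPM in GMCs and 522, 574 and 622 CPM in NBs. At 5 h they were 612 and 1126 CPM in GMCs and 466, 663 and 571 CPM in NBs. The groups stood apart at 1.5 and 3 h and overlapped at 5 h, where the GMC libraries were farther from each other than any NB libraries. Atpalpha was called higher in GMCs at 3 h, by 0.97 ± 0.22 on the log2 scale (SE, adjusted p = 0.00541, edgeR), and at 5 h, by 0.62 ± 0.22 (adjusted p = 0.0492). At 1.5 h the difference was 0.52 ± 0.20 with an adjusted p of 0.0911. The call at 5 h was lost in 6 of 12 alternatives, and without GMC replicate 2 the difference was 0.11 (adjusted p = 0.799); the call at 3 h was lost without GMC replicate 1 (0.87, adjusted p = 0.0700).

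The beta subunit gene nrv2 (FBgn0015777, chromosome 2L, 6789770 to 6798862, minus strand) was the abundant one of the 3 and was not called at any age. It had 381, 356 and 282 CPM in GMCs and 374, 333 and 294 CPM in NBs at 1.5 h, 422 and 361 CPM in GMCs and 417, 307 and 287 CPM in NBs at 3 h, and 328 and 355 CPM in GMCs and 311, 353 and 299 CPM in NBs at 5 h. These groups overlapped at each age. The log2 differences were 0.03 ± 0.17, 0.22 ± 0.19 and 0.09 at the 3 ages, with adjusted p of 0.946, 0.484 and 0.760.

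Its neighbour nrv1 (FBgn0015776, chromosome 2L, 6778555 to 6786861, minus strand) lies 2908 bp away on the same strand and moved differently. In GMCs nrv1 had 4.57, 12.1 and 5.87 CPM at 1.5 h, 1.70 and 1.55 CPM at 3 h, and 0.809 and 0.724 CPM at 5 h. In NBs it had 4.10, 2.23 and 3.95 CPM at 1.5 h, 3.62, 4.13 and 3.02 CPM at 3 h, and 3.02, 3.03 and 3.77 CPM at 5 h. The GMC libraries lay above the NB libraries at 1.5 h and below them at 3 and 5 h, while the NB libraries kept to one range. The log2 difference was 1.13 ± 0.38 at 1.5 h (adjusted p = 0.0519, edgeR), -1.15 ± 0.48 at 3 h (adjusted p = 0.104) and -2.08 ± 0.52 at 5 h (adjusted p = 0.00655), and the last passed the test. Without GMC replicate 2 the value at 5 h was -2.01 with an adjusted p of 0.0658, and the call was lost in 2 of 12 alternatives. At 1.5 h nrv1 passed in the authors' deposited table, with an adjusted p of 0.0251. Between GMCs alone nrv1 was lower at 3 h than at 1.5 h, at -2.21 on the log2 scale (adjusted p = 0.0259), a call lost without either GMC library of 3 h or without GMC replicate 2 or 3 of 1.5 h (adjusted p = 0.0632 to 0.271). Lower still was its level at 5 h against 1.5 h, at -3.27 (adjusted p = 0.000278).

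The remaining beta subunit gene, nrv3 (FBgn0032946, chromosome 2L, 21380000 to 21393319, plus strand), showed the widest difference of the 10. At 1.5 h it had 40.8, 60.0 and 54.3 CPM in GMCs, against 0.190, 0.401 and 0.370 CPM in NBs. At 3 h it had 16.4 and 29.4 CPM in GMCs, against 1.69, 2.57 and 1.37 CPM in NBs. At 5 h it had 3.14 and 8.20 CPM in GMCs, against 2.71, 8.15 and 20.9 CPM in NBs. With age the GMC libraries were lower and the NB libraries higher, until the groups overlapped at 5 h. The fold change was 7.30 ± 0.69 on the log2 scale at 1.5 h (adjusted p = 8.73e-06, edgeR), 157-fold, and 3.61 ± 0.61 at 3 h (adjusted p = 0.000555), 12.2-fold. At 5 h it was -0.91 ± 0.60 and was not called (adjusted p = 0.275). Both calls held in every alternative tried, at 7.03 to 7.45 for 1.5 h and 3.11 to 3.96 for 3 h.

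NBs at 5 h, set against NBs at 1.5 h, were higher for nrv3 by 5.01 ± 0.66 on the log2 scale (adjusted p = 0.000335, edgeR), and it was the 1 member of the 10 called there, where 11.3% of all genes were called and 7.28% as higher. That call held in all 13 alternatives, at 4.05 to 5.47. NB replicate 3 was the highest of the 3 at 5 h in nrv3. The same library was highest in the synaptic vesicle gene nSyb, with 37.6 CPM against 7.60 and 8.67 CPM in the other NB libraries of 5 h, and in the summed neuron markers, with 1199 CPM against 541 and 865 CPM. Without it the GMC to NB difference of nrv3 at 5 h was 0.05 (adjusted p = 0.958), and without NB replicate 1 it was -1.37 and passed the test (adjusted p = 0.0398). The part that cells of another type had in these values was not tested, and in bulk samples fewer cells of a type and less RNA per cell cannot be told apart.

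The makeup of the beta subunits changed in the same way. Per kilobase of exon, nrv3 was 7.29%, 10.7% and 12.2% of the nrv transcripts in GMCs at 1.5 h, against 0.0374%, 0.0891% and 0.0920% in NBs. It was 2.80% and 5.71% in GMCs and 0.299%, 0.609% and 0.349% in NBs at 3 h, and 0.707% and 1.69% in GMCs and 0.637%, 1.68% and 4.87% in NBs at 5 h. nrv2 was the main beta subunit gene in every library, with 84.6% to 98.9%. Averaged over the ages the nrv3 share was 4.21 percentage points higher in GMCs (exact two-sided permutation test of cell type within age, p = 0.0190), although at 5 h the mean was 1.20% in GMCs and 2.39% in NBs. The share is made from the same counts as the tests of single genes and is no independent sign of them.

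Alpha transcripts were set against the summed beta transcripts as a ratio per kilobase. The ratio was 1.36, 1.34 and 1.36 in GMCs and 0.879, 1.16 and 1.26 in NBs at 1.5 h, 1.47 and 1.45 in GMCs and 0.657, 0.970 and 1.13 in NBs at 3 h, and 0.986 and 1.66 in GMCs and 0.784, 0.973 and 0.950 in NBs at 5 h. Each GMC library was above each NB library of its age. The mean difference over ages was 0.404 (exact two-sided permutation test, p = 0.0005, the smallest that the 2000 arrangements allow). This ratio, too, is made from the same counts as the tests of single genes.

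**Figure D3:**
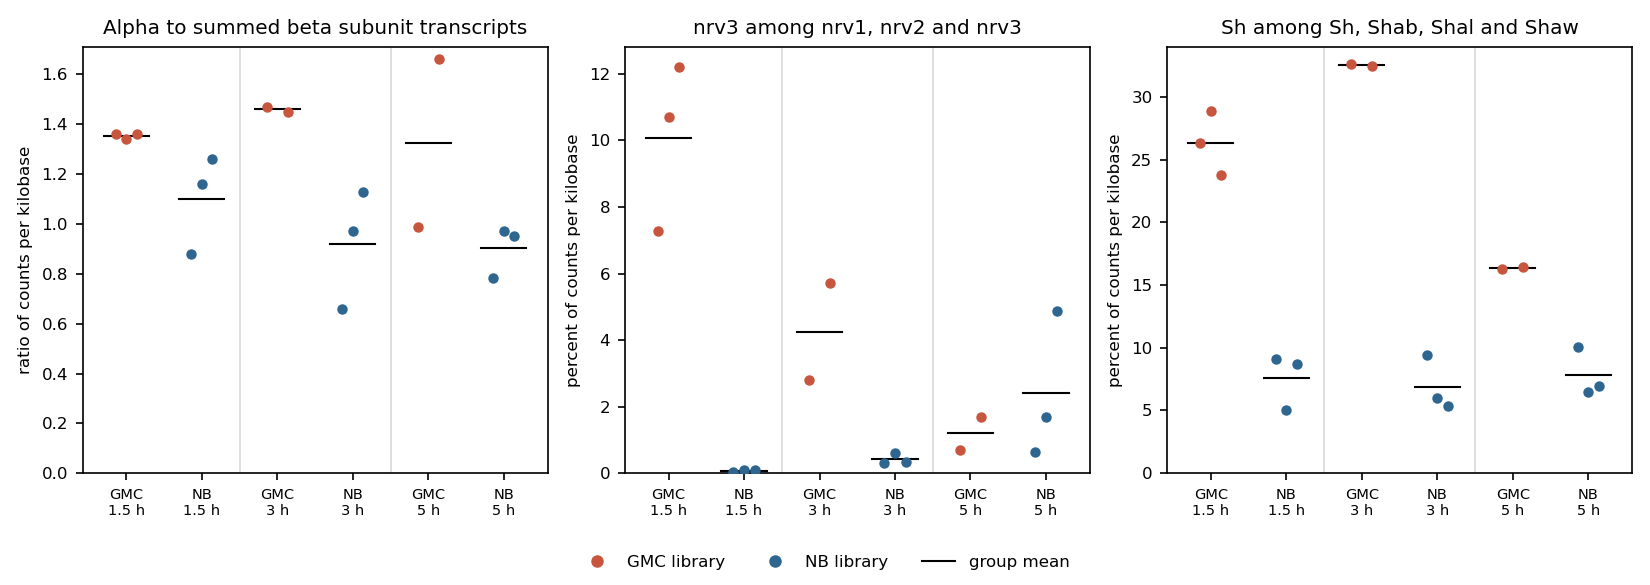
Makeup of the pump and potassium channel transcripts per kilobase of exon in each library, GMC in red and NB in blue, with lines at group means: the ratio of Atpalpha to the summed beta subunits, and the percent of nrv3 among beta subunits and of Sh among the 4 potassium channel genes. The nrv3 share reaches 12.2% in GMCs at 1.5 h and the Sh share lies above that of NBs in all GMC libraries.

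The sodium channel gene para (FBgn0264255, chromosome X, 16455027 to 16533096, minus strand) had 17.6, 23.5 and 32.7 CPM in GMCs at 1.5 h, against 13.3, 7.73 and 10.9 CPM in NBs. At 3 h it had 18.1 and 28.5 CPM in GMCs and 19.2, 9.90 and 9.63 CPM in NBs, and at 5 h 5.26 and 6.15 CPM in GMCs and 5.00, 6.37 and 5.70 CPM in NBs. The groups stood apart at 1.5 h and overlapped later. para was higher in GMCs at 1.5 h by 1.21 ± 0.31 on the log2 scale (adjusted p = 0.0139, edgeR). With the trend of fold change on gene length removed the value was 0.67 (adjusted p = 0.301), and it was 1.03 (adjusted p = 0.0783) without NB replicate 2 and 0.88 (adjusted p = 0.0966) without GMC replicate 3. At 3 h it was 0.87 ± 0.35 (adjusted p = 0.0895) and at 5 h 0.00 ± 0.38 (adjusted p = 0.998). GMCs at 5 h had less para than GMCs at 1.5 h, at -2.11 on the log2 scale (adjusted p = 0.000758).

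Of 9 tested partners and relatives of the sodium channel, 2 were called higher in GMCs at 1.5 h and none lower, 1 higher and none lower at 3 h, and none higher and 1 lower at 5 h. These counts were near or below the shares of all genes called at the 3 ages, 17.6%, 20.7% and 28.8%. The list's median log2 fold changes were 0.27, -0.01 and -0.06. The 2 genes called at 1.5 h were tipE and Teh1, which encode auxiliary subunits of para. tipE had 7.17, 10.5 and 3.29 CPM in GMCs and 2.10, 3.72 and 1.65 CPM in NBs (1.50 ± 0.48, adjusted p = 0.0392, edgeR). Teh1 had 2.12, 1.28 and 1.69 CPM in GMCs and 0.190, 0.344 and 0.206 CPM in NBs (2.76 ± 0.75, adjusted p = 0.0178). unc80, a subunit gene of the sodium leak channel complex, rose at 3 h by 2.18 ± 0.69 (adjusted p = 0.0324). The gene of the leak channel's pore, na, fell at 5 h, with 6.88 and 11.9 CPM in GMCs and 29.2, 32.0 and 38.1 CPM in NBs (-1.82 ± 0.34, adjusted p = 0.000707).

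Among the potassium channel genes, Sh (FBgn0003380, chromosome X, 17924307 to 18063247, minus strand) differed most at 1.5 and 3 h. It had 33.3, 74.3 and 48.9 CPM in GMCs at 1.5 h, against 3.43, 2.18 and 4.16 CPM in NBs. It had 27.5 and 45.3 CPM in GMCs at 3 h, against 4.86, 5.15 and 3.45 CPM in NBs. At 5 h it had 5.06 and 8.08 CPM in GMCs, against 6.87, 1.57 and 7.54 CPM in NBs, and the groups overlapped. Sh was higher in GMCs by 3.99 ± 0.47 on the log2 scale at 1.5 h (adjusted p = 6e-05, edgeR) and by 3.03 ± 0.48 at 3 h (adjusted p = 0.000369), and these calls held in every alternative tried. The difference at 5 h was 0.30 ± 0.50 (adjusted p = 0.699).

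Shaw (FBgn0003386, chromosome 2L, 3718185 to 3729145, plus strand) had 8.94, 16.7 and 12.1 CPM in GMCs at 1.5 h, against 1.24, 2.12 and 2.67 CPM in NBs. At 3 h it had 6.59 and 7.91 CPM in GMCs and 3.84, 6.63 and 4.53 CPM in NBs, and at 5 h 1.21 and 0.844 CPM in GMCs and 6.04, 0.940 and 5.40 CPM in NBs. The libraries stood apart at 1.5 h and overlapped at the later ages, at 5 h through NB replicate 2. Shaw was higher in GMCs at 1.5 h by 2.63 ± 0.51 on the log2 scale (adjusted p = 0.00212, edgeR). At 5 h it was lower, at -1.98 ± 0.65 (adjusted p = 0.0300), a call that failed in 6 of 12 alternatives. These included leaving out either GMC library, NB replicate 1 or NB replicate 3 (adjusted p = 0.0726 to 0.188).

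Shab (FBgn0262593, chromosome 3L, 2895017 to 2959579, plus strand) had 5.05, 13.3 and 9.61 CPM in GMCs and 2.19, 3.32 and 2.35 CPM in NBs at 1.5 h. Shal (FBgn0005564, chromosome 3L, 19566851 to 19584568, minus strand) had 8.60, 16.3 and 16.6 CPM in GMCs and 4.90, 4.93 and 5.35 CPM in NBs. Neither gene's groups overlapped at that age. Shab was higher by 1.83 ± 0.58 on the log2 scale (adjusted p = 0.0369, edgeR) and Shal by 1.45 ± 0.45 (adjusted p = 0.0335). Each call was lost in 5 of 13 alternatives, all of them fits without 1 library: NB replicate 1, 2 or 3 or GMC replicate 2 or 3 (adjusted p = 0.0755 to 0.157 for Shab and 0.0827 to 0.124 for Shal). With NB replicate 2 or GMC replicate 3 of 1.5 h left out, 3 of the 10 genes were called at that age. Calls over all genes fell as well, to 1181 and 1458, against 1916 with all libraries.

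Later the 2 genes were uncalled. At 3 h Shab had 0.754 and 5.43 CPM in GMCs and 1.47, 2.49 and 2.59 CPM in NBs, and at 5 h 2.73 and 5.79 CPM in GMCs and 3.23, 2.72 and 8.66 CPM in NBs. Shal had 5.09 and 9.54 CPM in GMCs and 5.31, 9.20 and 7.19 CPM in NBs at 3 h, and 3.03 and 5.19 CPM in GMCs and 5.52, 2.61 and 11.9 CPM in NBs at 5 h. NB replicate 3 was the highest library at 5 h for both.

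As a share of the 4 potassium channel genes per kilobase, Sh made up 26.3%, 28.9% and 23.8% in GMCs at 1.5 h, against 9.08%, 5.07% and 8.74% in NBs. It made up 32.6% and 32.5% in GMCs and 9.41%, 5.99% and 5.32% in NBs at 3 h, and 16.3% and 16.4% in GMCs and 10.1%, 6.47% and 6.95% in NBs at 5 h. The share was higher in each GMC library than in each NB library of its age, also at 5 h, where the level of Sh itself overlapped. The difference averaged 17.6 percentage points (exact two-sided permutation test within age, p = 0.0005, the smallest that it can give). On plain counts, without division by exon length, it was 31.3 points. The Sh share is made from the same counts as the tests of single genes and is no independent sign of them. At 5 h the mean of Sh was 0.288 CPM per kb in GMCs and 0.234 in NBs. The means of the other 3 genes were lower in GMCs: Shab 0.375 against 0.428, Shal 0.892 against 1.45 and Shaw 0.206 against 0.825. Shaw had 7 to 12 counts in the GMC libraries of 5 h. In NBs Shal took 40.1% to 64.3% and was the largest of the 4 in every library but 1, at 5 h, where Shaw took 40.4% and Shal 40.1%.

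Of 6 tested partners of potassium channels, 3 were higher and 1 lower in GMCs at 1.5 h, 2 higher and 1 lower at 3 h, and none higher and 1 lower at 5 h. Called at these ages were 17.6%, 20.7% and 28.8% of all genes. qvr, whose product binds Sh and raises its current, had 14.9, 32.8 and 28.6 CPM in GMCs and 0.286, 0.286 and 0.247 CPM in NBs at 1.5 h (6.50 ± 0.95, adjusted p = 0.000287, edgeR). Hk, the beta subunit gene of Sh, had 5.12, 6.33 and 8.45 CPM in GMCs and 1.00, 1.15 and 2.14 CPM in NBs (2.20 ± 0.49, adjusted p = 0.00569). dysc and Slip1, both linked to the calcium-activated channel slo, went apart: dysc rose by 5.04 ± 0.65 (adjusted p = 0.000114), while Slip1 fell, at -0.77 ± 0.18 (adjusted p = 0.00776). The gene lower at 5 h was Nca, at -0.85, named here after its value was seen. At that age qvr had 1.62 and 6.75 CPM in GMCs and 1.67, 3.24 and 21.5 CPM in NBs, the last again NB replicate 3.

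Of the other potassium channel genes 14 of 15 were tested, and 5 were higher and 1 lower in GMCs at 1.5 h, 1 higher and 1 lower at 3 h, and 2 higher and 2 lower at 5 h. The shares of all genes called at these ages were 17.6%, 20.7% and 28.8%. SK, a calcium-activated channel gene, had 9.15, 17.1 and 14.3 CPM in GMCs and 0.571, 0.974 and 1.15 CPM in NBs at 1.5 h (3.89 ± 0.58, adjusted p = 0.000314, edgeR) and was higher at 3 h as well (2.44 ± 0.60, adjusted p = 0.00786). eag rose at 1.5 h by 3.21 ± 0.58 (adjusted p = 0.00146). The inward rectifier gene Irk3 fell at each age, at -1.36 (adjusted p = 0.00823), -1.56 (adjusted p = 0.00815) and -1.86 (adjusted p = 0.00173). The gene sei, a relative of eag, rose at 5 h, with 46.0 and 59.3 CPM in GMCs and 16.8, 25.2 and 22.6 CPM in NBs (1.29 ± 0.21, adjusted p = 0.000247). The remaining calls of this list, named after their values were seen, were SLO2, Task7 and Ih as higher at 1.5 h (2.24, 1.89 and 2.49) and KCNQ as higher and Task6 as lower at 5 h (1.04 and -0.64).

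The calcium channel gene cac (FBgn0263111, chromosome X, 11931280 to 11985087, minus strand) went the other way with age from nrv3 and Sh. It had 340, 344 and 231 CPM in GMCs at 1.5 h, against 161, 188 and 187 CPM in NBs. It had 408 and 383 CPM in GMCs at 3 h, against 134, 200 and 186 CPM in NBs. At 5 h it had 464 and 1156 CPM in GMCs, against 44.1, 135 and 129 CPM in NBs. GMC libraries lay above NB libraries at each age, and the gap was widest at 5 h. The log2 difference was 0.77 ± 0.35 at 1.5 h (adjusted p = 0.149, edgeR), 1.19 ± 0.38 at 3 h (adjusted p = 0.0362) and 2.98 ± 0.39 at 5 h (adjusted p = 3.89e-05), 7.90-fold. The call at 3 h was lost with any 1 of the 5 libraries of that age left out (adjusted p = 0.0508 to 0.165) and with the gene-length trend removed (0.58, adjusted p = 0.150), whereas the call at 5 h held in all 12 alternatives, at 2.17 to 3.49.

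The size of the 5 h value depended on GMC replicate 2, whose cac level of 1156 CPM was far above the 464 CPM of replicate 1. GMCs at 5 h were higher for cac than GMCs at 1.5 h by 1.41 ± 0.38 on the log2 scale (adjusted p = 0.0110, edgeR). Without GMC replicate 2 of 5 h that value was 0.60 (adjusted p = 0.360), and without GMC replicate 3 of 1.5 h it was 1.22 (adjusted p = 0.0539). NBs at 5 h against 1.5 h stood at -0.80 ± 0.35 for cac (adjusted p = 0.151).

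Other calcium channel genes did not share the course of cac. Of 5 tested, 4 were higher in GMCs at 1.5 h, 3 at 3 h and none at 5 h, and none was lower at any age. Called higher at these ages were 8.59%, 10.2% and 14.8% of all genes. Ca-beta, the beta subunit gene, had 5.94, 19.2 and 17.5 CPM in GMCs and 0.476, 0.516 and 0.617 CPM in NBs at 1.5 h (4.70 ± 0.76, adjusted p = 0.000626, edgeR). The alpha2delta subunit gene stj had 12.2, 24.6 and 23.2 CPM in GMCs and 2.95, 3.61 and 3.83 CPM in NBs (2.52 ± 0.51, adjusted p = 0.00276). stol, of the same subunit class, rose by 5.56 ± 0.79 (adjusted p = 0.00022), and the low-voltage-activated channel gene Ca-alpha1T by 4.69 ± 0.58 (adjusted p = 8.54e-05). The gene that was not called, Ca-alpha1D, lies outside the rule for named genes and is given because it was the 1 exception, at -0.59 ± 0.28 (adjusted p = 0.174). At 5 h the 5 genes had a median of -0.50, and stol had 4.85 and 10.3 CPM in GMCs and 2.19, 3.03 and 21.7 CPM in NBs. NBs at 5 h were higher than NBs at 1.5 h for 4 of the 5, where 7.28% of all genes were called higher.

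**Figure D4:**
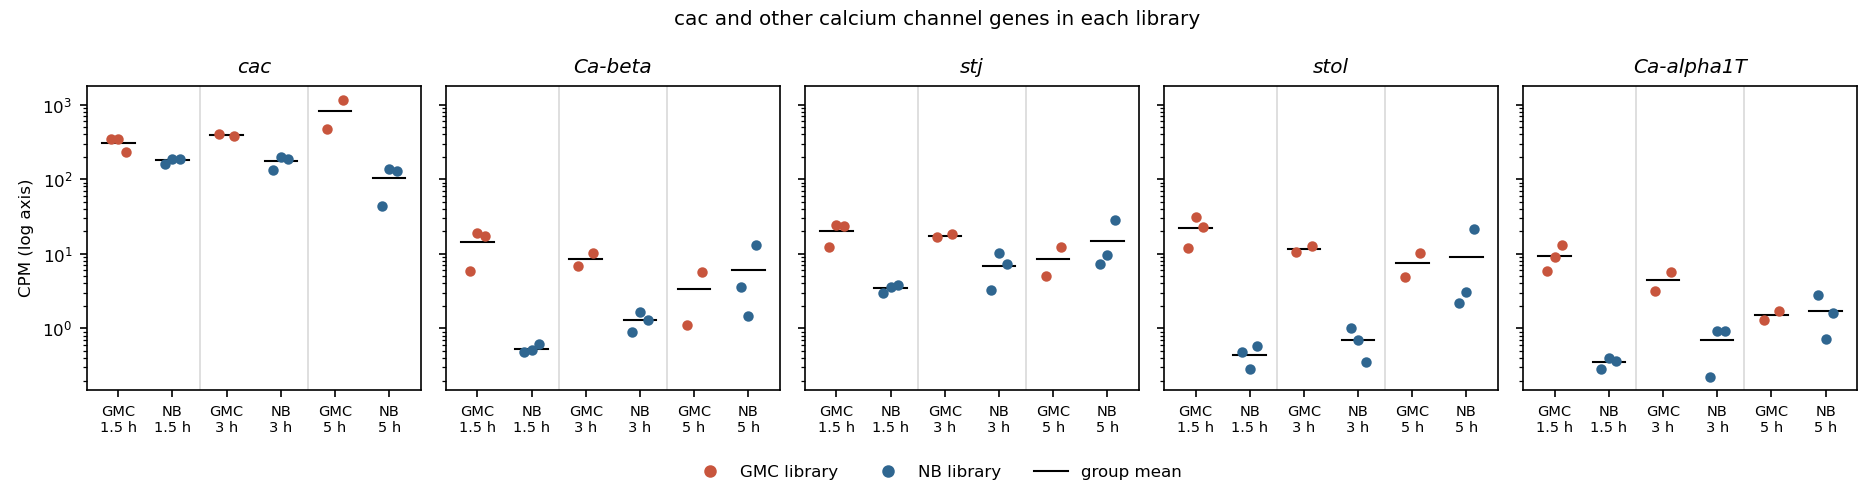
CPM of cac and of 4 other calcium channel genes in each library on one log axis, GMC in red and NB in blue, with lines at group means. cac separates most at 5 h, where Ca-beta, stj, stol and Ca-alpha1T overlap and NB replicate 3 is the highest library of that age for Ca-beta, stj and stol.

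How the GMC to NB difference changed with age was tested directly. Between 1.5 and 5 h the change passed the test for 6 of the 10 genes, 5 downward and 1 upward, where 13.2% of all genes were called, 6.59% in each direction. The change was -8.21 ± 0.94 on the log2 scale for nrv3 (adjusted p = 0.00016, edgeR), -4.62 ± 0.83 for Shaw (adjusted p = 0.00198), -3.69 ± 0.69 for Sh (adjusted p = 0.00255) and -3.21 ± 0.65 for nrv1 (adjusted p = 0.0045). For those 4 it held in all 18 alternatives. For Shal it was -2.15 ± 0.69 (adjusted p = 0.0498) and held in 5 of 18 alternatives, and for cac it was 2.21 ± 0.52 (adjusted p = 0.0111), lost in 1, without GMC replicate 2 of 5 h (1.41, adjusted p = 0.118). The median over the 10 genes was -2.09, against -0.14 for all genes tested.

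Between 1.5 and 3 h none of the 10 passed, as none of all 10913 genes did (edgeR). At an unadjusted p under 0.05 there were 3 of the 10, but the share of all genes under that threshold was not counted. DESeq2 called 32 of all genes, and 1 of the 10, nrv3, at -3.80 (adjusted p = 0.00712). The edgeR values were -3.69 for nrv3 (adjusted p = 0.486), -2.28 for nrv1 (adjusted p = 0.587) and -2.10 for Shaw (adjusted p = 0.674).

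Within GMCs 7 of the 10 genes were called between 5 and 1.5 h, 1 higher and 6 lower, where 30.3% of all genes were called, 17.0% higher and 13.3% lower. The 1 that was higher was cac. The 6 that were lower were Shaw (-3.59, adjusted p = 0.000807, edgeR), nrv1, nrv3, Sh (-2.99, adjusted p = 0.000593), para and Shal (-1.75, adjusted p = 0.0211). The call of Shal failed without GMC replicate 2 or 3 of 1.5 h or either GMC library of 5 h (adjusted p = 0.0541 to 0.170), and the other lower calls held in all 12 alternatives. Between 3 and 1.5 h GMCs had 1 gene called, nrv1, where 2.96% of all genes were called, 1.32% higher and 1.64% lower. NBs had none called between 3 and 1.5 h (edgeR), where 0.101% of all genes were called, 0.0733% higher and 0.0275% lower. At an unadjusted p under 0.05 there were 2 of the 10, and the share of all genes there was not counted. DESeq2 called 225 of all genes and 1 of the 10, nrv3 (2.62, adjusted p = 0.00725). The libraries of 2 ages had no overlap for 7 of the 10 genes between GMCs at 5 and 1.5 h (61.3% of all genes), for 4 between GMCs at 3 and 1.5 h (47.9%), for 3 between NBs at 5 and 1.5 h (29.3%) and for 3 between NBs at 3 and 1.5 h (28.2%). The age comparisons share their 1.5 h libraries with the GMC to NB comparisons.

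Markers of neighbouring cell types were counted beside these genes. Among all genes tested, 8.59%, 10.2% and 14.8% were called higher in GMCs at 1.5, 3 and 5 h. The shares called lower were 8.97%, 10.5% and 14.0%. Of 10 neuron markers 9 were higher in GMCs at 1.5 h, 7 at 3 h and 2 at 5 h, and none was lower, with medians of 2.55, 1.83 and -0.35. Their summed level was 1529 to 1866 CPM in GMCs and 482 to 670 CPM in NBs at 1.5 h, 1642 and 1927 CPM in GMCs and 595 to 652 CPM in NBs at 3 h, and 5902 and 5955 CPM in GMCs and 541 to 1199 CPM in NBs at 5 h. The sum at 5 h was mostly elav, a pan-neuronal RNA-binding protein gene, with 5297 and 5135 CPM in GMCs and 303, 442 and 534 CPM in NBs. brp, a presynaptic scaffold gene, instead had 30.4, 63.4 and 62.0 CPM in GMCs and 1.95, 1.60 and 2.76 CPM in NBs at 1.5 h, and 5.26 and 10.6 CPM in GMCs and 17.2, 4.28 and 19.5 CPM in NBs at 5 h. No neuron marker was at 0 in every library of a group, and the part of these cells in the results was not tested.

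Of 10 glia markers, nrv2 among them, 4 were higher in GMCs at 1.5 h, 5 at 3 h and 4 at 5 h, and none was lower. The sum of the 9 other than nrv2 was 425 to 566 CPM in GMCs and 464 to 513 CPM in NBs at 1.5 h, and 830 and 863 CPM in GMCs and 284 to 374 CPM in NBs at 5 h. gcm, the glial fate gene, had 26.2 and 16.8 CPM in GMCs and 2.19, 1.04 and 1.73 CPM in NBs at 5 h. Hemocyte and fat body markers, 6 of 8 tested, had no member higher at any age, with 1 lower at 3 h and 2 at 5 h. Their sum reached 75.4 CPM in GMCs and 104 CPM in NBs, both at 3 h. Of 8 neuroblast markers 6 were lower in GMCs at 1.5 h and none higher, 5 lower and 2 higher at 3 h, and 4 lower and 2 higher at 5 h. The 2 that were higher were wor (0.75 at 3 h and 1.92 at 5 h) and ase (1.38 at 3 h and 1.71 at 5 h), the gene whose enhancer drives the GFP of the sort.

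Of 10 septate junction genes, the proteins that Atpalpha and nrv2 join at that seal, 2 were higher in GMCs at 1.5 h, 2 at 3 h and 5 at 5 h, with 1 lower at 5 h. Beside this and the next 2 lists, 17.6%, 20.7% and 28.8% of all genes were called at the 3 ages. Nrg, an adhesion molecule gene, had 480, 373 and 298 CPM in GMCs and 192, 264 and 219 CPM in NBs at 1.5 h (0.77 ± 0.22, adjusted p = 0.0251, edgeR). It had 1003 and 1485 CPM in GMCs and 177, 318 and 252 CPM in NBs at 5 h (2.32 ± 0.25, adjusted p = 5.48e-06). Lac was called at 5 h alone among the ages (1.72 ± 0.17, adjusted p = 1.98e-06), and the gene lower at 5 h was Gli, at -0.96, named after its value was seen. Of 5 chloride transport genes, ClC-a rose at 1.5 h (2.13 ± 0.47, adjusted p = 0.00498) and 3 h (2.25 ± 0.49, adjusted p = 0.00363), and ClC-b fell at 5 h (-0.62 ± 0.18, adjusted p = 0.0163). Of 5 other pump subunit genes listed, 4 were matched to a counted gene and 2 passed the filter, and 1 of these, the alpha subunit relative JYalpha, fell in GMCs at 3 h, with 0.754 and 0.775 CPM in GMCs and 1.47, 5.22 and 3.52 CPM in NBs (-2.15 ± 0.69, adjusted p = 0.0359).

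Genes with the pattern most like each member were found by Pearson's r of log2 CPM over the 16 libraries. These fall into 6 groups and carry 3 codes in their file names. Nearest to nrv3 were Drep2 (r = 0.968), Eaat2 (r = 0.964) and Pka-R2 (r = 0.960), and nearest to Sh were Rbp6 (r = 0.954), nAChRalpha3 (r = 0.949) and mamo (r = 0.939). The gene nearest to cac was InR (r = 0.978), followed by Ptp69D (r = 0.957) and psq (r = 0.948), and Tlk (r = 0.948), mam (r = 0.946) and Dl (r = 0.940) were nearest to Atpalpha. For Shaw they were Dhit (r = 0.956), wnd (r = 0.924) and Hs3st-B (r = 0.908), for Shal Srpk79D (r = 0.957), CG13055 (r = 0.879) and ssp6 (r = 0.869), and for Shab Ptp36E (r = 0.903), Slob (r = 0.891) and Tomosyn (r = 0.889).

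Nearest to para were RhoU (r = 0.917), MRE16 (r = 0.881) and eca (r = 0.880), and nearest to nrv1 were VhaPPA1-1 (r = 0.897), Gbeta5 (r = 0.876) and Tl (r = 0.873). nrv2, which varied least, had chic (r = 0.874), eff (r = 0.867) and qkr58E-1 (r = 0.861). Among the members themselves the highest values were 0.84 for Shal with Shaw, 0.82 for nrv3 with Sh, 0.78 for Atpalpha with cac and 0.77 for Sh with Shaw. These are descriptions of 16 libraries in 6 groups, so that differences between the groups enter them.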

How the data were processed

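Poly(A) RNA of sorted GMCs and NBs was sequenced in 16 libraries, grouped by the cell type and age in the labels, after oligo(dT) priming and Nextera library preparation, per the labels' protocols. The authors deposited a raw read count for each gene and library, not normalized. Tools named, per the submitters' processing notes, are HTSeq 0.6.1, TopHat2 2.1.1, DESeq2 1.12.4, BWA 0.7.12 and bedtools 2.26.0, but what each one did is not stated. Strand setting, build and use of the molecular barcodes in the index primer were likewise not given in the sources used here, so copies made by PCR may be counted and counting intervals would cover counting error alone. The columns of the authors' deposited comparison tables are, per the file headers, baseMean (a signal averaged over libraries), a log2 fold change with its standard error, a test score and p-values from DESeq2. The tables were used to name genes and for 1 adjusted p in the text.

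Coordinates are those in the authors' deposited tables, and all 10 members have the same span in the Ensembl 115 annotation of BDGP6.54, whose exons gave the lengths (by identifier, and by symbol and span for 81 genes, para among them). None of the members' exons overlapped another counted gene. Reads in no gene were 9.20% to 17.75% of a library's total, multiply aligned reads 21.71% to 33.42% and ambiguous reads 1.42% to 2.09%; these entries entered neither library sizes nor tests. Libraries of a group differed by more than counting noise, so none was merged.

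edgeR 4.0.16 (R 4.3.3, limma 3.58.1) fitted all 16 libraries in 6 groups by quasi-likelihood, with TMM scaling and a common dispersion of 0.0782. filterByExpr, set to a minimum count of 10 and a total of 15, removed 5451 genes and left 10913. Adjusted p-values are Benjamini-Hochberg over all genes tested, two-sided, called under 0.05. The SE of a fold change is its size over the root of F. Shares and ratios were tested over libraries by exact permutation of cell type within age. The code was tested on simulated data. The members and the gene lists were chosen with earlier results of these data known. The text names the 10 members, up to 4 genes of each further list with the smallest adjusted p in a GMC to NB comparison, and for each member the 3 genes most correlated with it. The alternatives were median-ratio scaling, TMM without CR43283, removal of the gene-length trend, DESeq2 1.42.0, no filter, fits of the compared groups alone, a replicate block and leaving out each library. Where that left 1 library in a group, it was taken to vary like the other groups. No sequence is shown, as none was analysed here.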

Additional observations from a re-analysis of the deposited data

Results flagged for a closer look

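The GMC to NB difference of 6 of the 10 genes differed between 5 h and 1.5 h in a direct test of that change. The test was the interaction term of edgeR, adjusted over all genes tested. It called 13.2% of all genes, 6.59% in each direction. The change was -8.21 on the log2 scale for nrv3, made up of 7.30 at 1.5 h and -0.91 at 5 h. It was -4.62 for Shaw, with 2.63 at 1.5 h and -1.98 at 5 h, and -3.69 for Sh, with 3.99 and 0.30. nrv1 changed by -3.21, with 1.13 at 1.5 h and -2.08 at 5 h. Shal changed by -2.15, which 13 of 18 alternatives did not keep past the threshold. In the opposite direction cac changed by 2.21, with 0.77 at 1.5 h and 2.98 at 5 h. Without GMC replicate 2 of 5 h the change of cac was 1.41. Age cannot be told apart from what the codes in the file names mark, such as a sequencing run, since no code was shared between ages.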

How the results depend on the processing

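Calls depended on single libraries, among all genes as among the 10. For GMCs at 3 h against 1.5 h edgeR called 323 of all genes, and 78 without GMC replicate 2 of 1.5 h. With all libraries it called 1438 of all genes for the change from 1.5 to 5 h. For 5 h against 1.5 h it called 1231 in NBs and 3312 in GMCs. Ranges over all genes below cover every alternative, not single libraries alone. The counts of the 10 genes moved too. With each library left out in turn, edgeR called 3 to 7 at 1.5 h against 6 with all, 2 to 4 at 3 h against 4, 1 to 4 at 5 h against 4, 4 to 6 for the change from 1.5 to 5 h against 6, 1 to 2 for NBs at 5 h against 1.5 h, 0 to 1 for GMCs at 3 h against 1.5 h and 5 to 7 for GMCs at 5 h against 1.5 h. Over all genes, the alternatives called 1157 to 3001 at 1.5 h against 1916, 1095 to 2851 at 3 h against 2255 and 1742 to 3648 at 5 h against 3144. Fits of the compared groups alone called 9 of the 10 at 1.5 h, adding Atpalpha, nrv1 and cac. The alternatives called up to 3001 of all genes at that age. These fits called 2 at 5 h (2380 of all genes) and 1 for NBs at 3 h against 1.5 h (152 of all genes). For GMCs at 3 h against 1.5 h they called 2 (1589 of all genes). DESeq2 called 1 for the change from 1.5 to 3 h (32 of all genes). Against 1.5 h it called 1 for NBs at 3 h (225 of all genes) and 2 for NBs at 5 h (1924 of all genes). Removal of the gene-length trend called 3 for NBs at 5 h against 1.5 h (1374 of all genes). Labels give GMC and NB libraries the same replicate numbers, and do not say whether same-numbered libraries came from the same culture. The deviations of same-numbered libraries correlated at -0.16 to 0.08. With 2 or 3 libraries in a group, such values cannot show whether the numbers mark pairs. Without a replicate block, edgeR called 1916 of all genes at 1.5 h and 1438 for the change to 5 h. Those counts are not given here for the fit with the block. With the replicate block 8 of the 10 genes were called at 1.5 h and 2 at 5 h (2545 of all genes). The change to 5 h was called for 5. For the change to 3 h 1 was called, the 1 gene called of all. In the same fit nrv1 at 5 h was not called (-1.97, adjusted p = 0.0537), and nrv3 and Shal at 5 h stood at 0.10 and 0.05. Removal of the gene-length trend turned para at 3 h to -0.01 and para and Sh at 5 h to -0.41 and -0.24. Without 1 library, values that were not called changed sign at 3 h for Shab (-1.54 to 1.30) and Shal (-0.52 to 0.40), and at 5 h for nrv3 (-1.76 to 0.05), Shab (-0.84 to 0.51) and Shal (-1.14 to 0.01). Others did so in the change to 5 h for Atpalpha (-0.40 to 0.48), in NBs at 3 h for nrv2 (-0.17 to 0.12) and para (-0.13 to 0.46), in NBs at 5 h for Shal (-0.32 to 0.78), and in GMCs at 5 h for Atpalpha (-0.70 to 0.18). None of the 6 calls at 1.5 h changed direction in any of the 13 alternatives. Scaling without CR43283 moved the median gene by 0.06 at 1.5 h, -0.11 at 3 h and 0.09 at 5 h. In the change to 3 h it moved by -0.17. Under this scaling 8 of the 10 genes were called at 1.5 h (adding Atpalpha and nrv1) and 4 at 3 h. Its counts over all genes are not given here. With CR43283 kept they were 1916 at 1.5 h and 2255 at 3 h. Shal was not called in the change to 5 h without CR43283 (edgeR, adjusted p = 0.0508). The share of nrv3 differed by 3.73 to 6.91 points over its alternatives (exact p = 0.00167 to 0.0362). The lowest levels rested on 4 to 9 counts per library, for nrv3 in NBs at 1.5 h. The causes of these shifts were not tested.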
